A study of Danio rerio with 6 samples.

Results

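Low-Fli1+ cells of the zebrafish reporter line Tg(fli1:EGFP) were compared with Fli1- cells of the same line by RNA sequencing. The comparison takes 4 of the 6 libraries of the study, Low-Fli1+ replicates 1 and 2 and Fli1- replicates 1 and 2, and the genes with a mean of at least 0.5 FPKM over these 4 libraries, which are 19088 of the 29126 named genes in the deposited table. FPKM, fragments per kilobase of transcript scaled to the mapped fragments of a library, is a level per transcript length. The third population, High-Fli1+, also with 2 libraries, entered the model to estimate the spread and serves here to place Low-Fli1+ levels. All 3 populations share the genotype Tg(fli1:EGFP), so the Fli1- cells carry the reporter too. Poly-A RNA was enriched from 100 ng of total RNA for each library. The labels give no developmental stage, no way of separating the populations and no number of embryos, and they do not say whether replicates come from separate animals, so p-values measure the spread between these libraries, which may be technical. The series title names an LMO2-PRDM16 axis in angiogenesis, and the comparison asks what marks the cells that the labels class as weakly Fli1-positive against cells classed as negative.

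Fli1 is an ETS transcription factor of endothelium and of several blood lineages. In zebrafish the fli1 promoter of this reporter line is active in vessels, in some blood cells and in the cranial neural crest that forms the jaw and gill skeleton, so its expression marks more than vessels. Lmo2 is an adaptor that joins Tal1 and GATA factors in blood and endothelial precursors, and Prdm16 is a zinc-finger regulator of transcription. Leukocytes, cartilage and connective tissue each have well-known transcripts, which are used below to describe the 2 populations by gene group.

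The Low-Fli1+ libraries were the least alike of any population. The median gene differed between them by 0.723 on the log2(FPKM + 1) scale, against 0.347 between the Fli1- and 0.431 between the High-Fli1+ libraries. Differences over 4-fold were seen for 17.4%, 1.78% and 3.62% of genes. Pearson's r, taken across genes that are not independent of each other, was 0.731 within Low-Fli1+, 0.923 within Fli1- and 0.908 within High-Fli1+. Low-Fli1+ replicate 2 correlated with both High-Fli1+ libraries (r of 0.765 and 0.761) and with Fli1- replicate 2 (0.744) more closely than with Low-Fli1+ replicate 1. Genes at 0 in 1 Low-Fli1+ library that reached 5 FPKM in the other numbered 1570, of which 1000 were at 0 in replicate 1, against 89 such genes in Fli1- and 179 in High-Fli1+. Depth is unknown for FPKM values, and some genes that every cell uses are listed at 0 in both Low-Fli1+ libraries, among them snrpg, a core splicing protein, and uqcrb, a subunit of respiratory complex III. A 0 is therefore given as listed at 0, in most cases without a fold. Where a fold is given beside a 0, as for emilin3a and lmo2, it depends on the 1 FPKM added to each value.

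**Figure D1:**
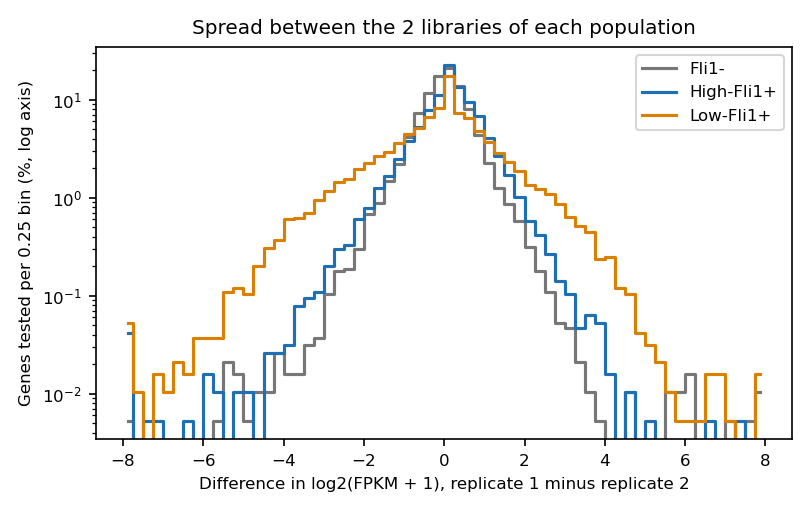
Difference in log2(FPKM + 1) between replicate 1 and replicate 2 of each population (horizontal) against the share of the 19088 genes in each bin of 0.25 (vertical, log axis). Each line is 1 population, and values beyond 8 are put in the last bins. The Low-Fli1+ line has the widest shoulders, with 17.4% of genes over 4-fold apart.

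In limma, 425 genes (2.23%) were called higher in Low-Fli1+ than in Fli1- cells and 243 (1.27%) lower, with p-values adjusted by Benjamini-Hochberg over the 19088 genes and a threshold of 0.05. The median level of the higher genes was 3.21 FPKM in Fli1- and 30.5 FPKM in Low-Fli1+ cells, and the smallest of these differences was 1.19 on the log2 scale. Both Low-Fli1+ libraries listed 167 of the 243 at 0, and the median level of the lower genes was 10.2 FPKM in Fli1- cells. A gene at 0 in both libraries of 1 population passed the filter through the other, which fixed its direction in advance. Without a test, both Low-Fli1+ libraries lay above both Fli1- libraries for 19.1% of genes and below both for 30.9%, which is the background for the counts of separated members below. The part that the larger number of zeros in Low-Fli1+ libraries has in the 30.9% was not tested. The gene lists were chosen with earlier results of these data known. Counts of their members beside a share of all genes are therefore description and not a test. Over all genes the log2 fold change had a median of -0.21 (-0.08 after quantile normalization). That scaling called 537 higher and 179 lower, so that 75% of calls were higher in place of 63.6%. Fold changes are log2 differences with 1 FPKM added to each value and with that median not subtracted, which understates the change of sparse genes. Each is given ± its standard error from limma. That error takes 1 spread per gene for every population, although the Low-Fli1+ libraries were the least alike. It may therefore be too small for Low-Fli1+ levels.

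The number of calls rested on the whole set of 6 libraries. With only the 4 libraries compared, 0 genes were higher and 1 lower by limma, and at an unadjusted p under 0.05 in the fit of all 6 libraries there were 1683 higher and 2462 lower. Without Low-Fli1+ replicate 1 no gene was called, and without High-Fli1+ replicate 1 or replicate 2 there were 3 and 3 calls. Without Low-Fli1+ replicate 2 there were 437 higher and 534 lower, without Fli1- replicate 1 121 and 799, and without Fli1- replicate 2 178 and 818. All 668 called genes kept their direction in each of these fits. That outcome was fixed in advance, since for every call both Low-Fli1+ libraries lay above, or both below, both Fli1- libraries. Every call named below was lost without Low-Fli1+ replicate 1, and each except mpx and SNORA3 was also lost without High-Fli1+ replicate 1 and without High-Fli1+ replicate 2. The counts of calls kept given below are for the other 3 libraries. They leave out losses to processing choices. Over 18 alternative settings of processing and libraries, SNORA3 kept its call in 17 and mpx in 16. The other named calls that were followed kept theirs in 14 or fewer, down to 6 for epcam and 5 for twist1b and igf2b. Each of these last genes lost its call at another pseudocount and without a filter. Where no population is named beside values, the Fli1- libraries come first and the Low-Fli1+ libraries second. Each pair is in the order of replicates 1 and 2.

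**Figure D2:**
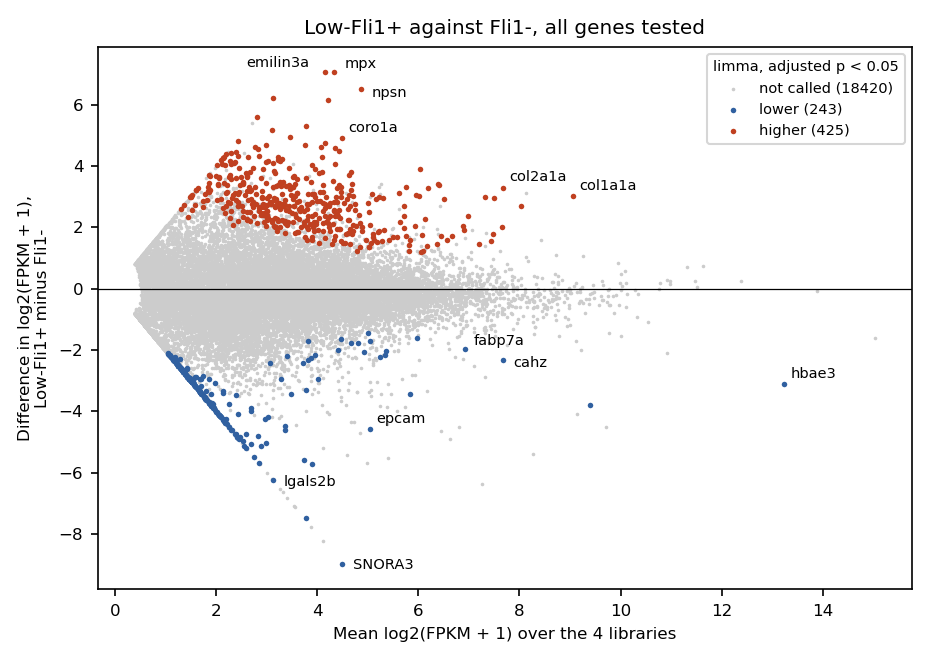
Mean log2(FPKM + 1) over the 4 libraries (horizontal) against the difference between Low-Fli1+ and Fli1- cells in log2(FPKM + 1) (vertical), 1 point per gene tested. Red points are the 425 genes called higher and blue points the 243 called lower in limma. Most lower calls line the lower left edge, where Low-Fli1+ values are listed at 0.

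The gene of the reporter followed the labels, while the genes of the series title did not reach a call. The ETS factor gene fli1a stood at 1.04 and 5.55 FPKM in the Fli1- libraries, 66.8 and 52.0 in the Low-Fli1+ pair and 241 and 192 in the High-Fli1+ pair (log2 fold change 4.03 ± 0.55, adjusted p = 0.0307). Its levels did not overlap between Fli1- and Low-Fli1+ libraries, and the Low-Fli1+ levels were below both High-Fli1+ levels, a difference that was not called (-1.85 on the log2 scale, adjusted p = 0.118). Its paralog fli1b was listed at 0 and 0.245 FPKM in Fli1- libraries and at 21.4 and 8.25 in Low-Fli1+ libraries, and it was called higher (adjusted p = 0.0384). In High-Fli1+ libraries fli1b was at 7.56 and 8.95 FPKM, so unlike fli1a it had no higher mean there than in Low-Fli1+. That difference was not called (adjusted p = 0.563). PRDM16, the table's name for prdm16, stood at 17.1 and 20.4 FPKM in the Fli1- libraries, 41.2 and 41.9 in the Low-Fli1+ pair and 138 and 125 in the High-Fli1+ pair. Both Low-Fli1+ libraries were above both Fli1- libraries, but the difference of 1.12 was not called (adjusted p = 0.0571), while the gap of -1.64 from High-Fli1+ was (adjusted p = 0.0248). In Low-Fli1+ libraries lmo2 was at 0 and 4.28 FPKM, against 13 and 10.7 in Fli1- libraries (log2 fold change -2.48 ± 0.89, adjusted p = 0.181). Both Low-Fli1+ values were below both Fli1- values, and 1 of them was listed at 0.

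Of 18 Lmo2 and Prdm16 partner genes tested, 2 were called higher and 0 lower, with a median of -0.19. The first was mecom, the close relative of prdm16 that acts in blood stem cells (8.44 and 10.9 FPKM in Fli1- and 32.5 and 49.8 in Low-Fli1+ libraries, log2 fold change 1.96 ± 0.34, adjusted p = 0.0445). The E-protein gene tcf12, whose product pairs with Tal1, was the other (42.7 and 44.1 against 113 and 121 FPKM, log2 fold change 1.41 ± 0.20, adjusted p = 0.0314). The blood and endothelial factor tal1 was at 28.0 and 21.6 FPKM in Fli1- and at 9.45 and 5.22 in Low-Fli1+ libraries, which was not called (-1.67, adjusted p = 0.0840). Of the 2 calls, 1 was kept without Fli1- replicate 1, 1 without Fli1- replicate 2 and 1 without Low-Fli1+ replicate 2. Among 14 ETS and partner factors, 5 were called higher and 0 lower (median 1.01). Besides fli1a and fli1b these included foxf1, a forkhead factor of gut and vascular mesenchyme (2.2 and 1.28 to 17.9 and 21.9 FPKM, log2 fold change 2.95 ± 0.35, adjusted p = 0.0251). The ETS factor gene elk3 (2.17 and 2.09 to 16.5 and 16.4 FPKM, log2 fold change 2.48 ± 0.32, adjusted p = 0.0268) rose as well. The last was ef1, matched to elf1 by a synonym (19.2 and 18.8 to 61.5 and 57.5 FPKM, log2 fold change 1.6 ± 0.22, adjusted p = 0.0307). In each, both Low-Fli1+ values were above both Fli1- values. Of these 5 calls, 4 without Fli1- replicate 1, 4 without Fli1- replicate 2 and 4 without Low-Fli1+ replicate 2 were kept.

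Neutrophil transcripts gave several of the largest rises. Myeloperoxidase, mpx, the granule enzyme that defines zebrafish neutrophils, stood at 0.662 and 0.828 FPKM in the Fli1- libraries, 214 and 251 in the Low-Fli1+ pair and 26.1 and 18.5 in the High-Fli1+ pair (log2 fold change 7.06 ± 0.29, adjusted p = 0.00762). The Low-Fli1+ libraries were close to each other and far above all 4 others, including both High-Fli1+ libraries (difference from High-Fli1+ 3.34, adjusted p = 0.0134). Under the 18 alternative settings mpx lost its call with only the 4 libraries compared and without Low-Fli1+ replicate 1. In bulk RNA, more cells of a type and more RNA per cell cannot be told apart, here and in every group below. The neutrophil protease npsn stood at 1.46 and 2.78 FPKM in the Fli1- libraries, 206 and 377 in the Low-Fli1+ pair and 43.4 and 45.4 in the High-Fli1+ pair (log2 fold change 6.52 ± 0.38, adjusted p = 0.0102), and it too was above both High-Fli1+ libraries (adjusted p = 0.0269). The gelatinase mmp9, which neutrophils store and which cleaves collagen fragments, stood at 0.723 and 1.81 FPKM in the Fli1- libraries, 125 and 193 in the Low-Fli1+ pair and 7.20 and 14.0 in the High-Fli1+ pair (log2 fold change 6.15 ± 0.47, adjusted p = 0.0181; against High-Fli1+ 3.82, adjusted p = 0.0201). For all 3 genes the levels of Low-Fli1+ and Fli1- libraries did not overlap.

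Other granule genes rose less evenly. Lysozyme, lyz, stood at 1.97 and 3.0 FPKM in Fli1- and at 50.5 and 168 in Low-Fli1+ libraries (log2 fold change 4.76 ± 0.66, adjusted p = 0.0310). The secreted leukocyte protein gene lect2l was at 0.975 and 1.37 against 32.1 and 225 FPKM (log2 fold change 5.32 ± 0.87, adjusted p = 0.0402). In both genes Low-Fli1+ replicate 2 was the higher. Serglycin, srgn, the proteoglycan that packs granule contents, was at 0.256 and 0 in Fli1- and 14.7 and 38.3 FPKM in Low-Fli1+ libraries (adjusted p = 0.0390). The collagenase mmp13a, which is not on the neutrophil list and is named for the size of its rise, stood at 0.375 and 0.472 against 34.9 and 73.6 FPKM (log2 fold change 5.18 ± 0.48, adjusted p = 0.0201; above High-Fli1+, adjusted p = 0.0479). Of 25 neutrophil genes chosen, 23 were in the table and 21 were tested, and of those 10 were called higher and 0 lower. Both Low-Fli1+ libraries lay above both Fli1- libraries for 19 of them, where 19.1% of all genes did, and the median log2 fold change was 2.83. Summed over the list, FPKM came to 125 and 183 in the Fli1- libraries, 1019.9 and 1838 in the Low-Fli1+ pair and 366 and 406 in the High-Fli1+ pair. For 19 of the genes Low-Fli1+ replicate 2 was above replicate 1. Among the defining neutrophil markers, whose ties to neutrophils were not tested here, cpa5 alone was not called (22.2 and 3.53 against 22.4 and 43.2 FPKM). Neither was il1b, a cytokine of activated myeloid cells (2.65 and 1.19 against 14.7 and 45.1 FPKM, adjusted p = 0.0614). The same held for cyba, a subunit of the neutrophil oxidase (0 and 0.806 against 11.2 and 15.09 FPKM, adjusted p = 0.0781). Of the 10 calls, 4 without Fli1- replicate 1, 5 without Fli1- replicate 2 and 5 without Low-Fli1+ replicate 2 were kept.

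Most of the genes that leukocytes of all kinds share also rose. The actin-binding coronin coro1a stood at 3.50 and 2.78 FPKM in the Fli1- libraries, 124 and 121 in the Low-Fli1+ pair and 38.1 and 36.9 in the High-Fli1+ pair (log2 fold change 4.90 ± 0.24, adjusted p = 0.00762). Its Low-Fli1+ libraries nearly coincided, above both High-Fli1+ libraries (difference 1.68, adjusted p = 0.0264). The integrin chain itgb2, which leukocytes use to adhere to vessel walls, stood at 0.309 and 0.867 FPKM in the Fli1- libraries, 38.4 and 40.9 in the Low-Fli1+ pair and 6.82 and 5.79 in the High-Fli1+ pair (log2 fold change 4.70 ± 0.41, adjusted p = 0.0200), again above High-Fli1+ (adjusted p = 0.0361). The Arp2/3 subunit arpc1b stood at 3.08 and 4.1 FPKM in Fli1- and at 71.7 and 142 in Low-Fli1+ libraries (log2 fold change 4.48 ± 0.37, adjusted p = 0.0200), and High-Fli1+ libraries, at 82.8 and 77.2 FPKM, lay within the Low-Fli1+ range. Outside the leukocyte list, and named for the size of their rise, the motor protein gene myo1f (0.0225 and 0.841 to 31.1 and 34.2 FPKM) and rgs13, a regulator of G protein signalling (2.55 and 3.91 to 68.0 and 143 FPKM), rose by 4.61 and 4.58 (adjusted p = 0.0210 and 0.0200).

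The receptors and adaptors of the leukocyte group included ccr9a, a chemokine receptor (0.980 and 1.24 FPKM in Fli1- and 53.3 and 30.8 in Low-Fli1+ libraries, log2 fold change 4.30 ± 0.44, adjusted p = 0.0218). The kindlin gene fermt3b, which activates integrins in blood cells, rose (0 and 0.321 against 26.3 and 14.4 FPKM, adjusted p = 0.0243). So did wasa, an actin nucleation promoter (0 and 0.25 against 9.64 and 30.9 FPKM, adjusted p = 0.0415). The actin bundler lcp1, or L-plastin, was at 0.906 and 2.03 against 26.3 and 24.7 FPKM (log2 fold change 3.46 ± 0.43, adjusted p = 0.0257). The myeloid ETS factor spi1b, or Pu.1, was at 3.50 and 4.2 FPKM in the Fli1- libraries, 31.8 and 50.8 in the Low-Fli1+ pair and 9.91 and 10.3 in the High-Fli1+ pair (log2 fold change 3.09 ± 0.36, adjusted p = 0.0243). It was called above High-Fli1+ as well (adjusted p = 0.0470). Of 27 shared leukocyte genes tested, 16 were called higher and 0 lower, and all 27 had a positive difference (median 3.23). The other called members, which include the kinases syk and btk and the phosphatases ptpn6 and inpp5d, rose by between 2.11 (rac2) and 3.69 (spi1a). The pan-leukocyte phosphatase ptprc was at 1.17 and 0.940 against 8.76 and 20.7 FPKM, which was not called (adjusted p = 0.0634). Summed FPKM came to 70.25 and 117 in the Fli1- libraries, 833 and 1076 in the Low-Fli1+ pair and 404 and 476 in the High-Fli1+ pair. Of the 16 calls, 3 without Fli1- replicate 1, 5 without Fli1- replicate 2 and 14 without Low-Fli1+ replicate 2 were kept.

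Fewer macrophage genes were called. The colony-stimulating factor receptors csf1ra and csf1rb both rose. In macrophages and some pigment cells csf1ra is needed for development, and it stood at 2.33 and 3.06 FPKM in the Fli1- libraries, 21.5 and 24.3 in the Low-Fli1+ pair and 1.61 and 1.72 in the High-Fli1+ pair (log2 fold change 2.70 ± 0.43, adjusted p = 0.0384). Its Low-Fli1+ level was above that of both other populations (against High-Fli1+ 3.17, adjusted p = 0.0248). For csf1rb the values were 0.583 and 0.885 FPKM in the Fli1- libraries, 22.2 and 14.8 in the Low-Fli1+ pair and 21.1 and 18.4 in the High-Fli1+ pair (log2 fold change 3.47 ± 0.40, adjusted p = 0.0243), with High-Fli1+ libraries in the same range as Low-Fli1+. The lysosomal protease gene ctsba also rose (43.4 and 42.5 to 96.1 and 102 FPKM, log2 fold change 1.19 ± 0.21, adjusted p = 0.0471). The macrophage perforin mpeg1.1 stood at 3.26 and 3.50 FPKM in the Fli1- libraries, 13.2 and 23.7 in the Low-Fli1+ pair and 0.670 and 0.412 in the High-Fli1+ pair. Both its Low-Fli1+ values exceeded all others, but the difference from Fli1- was not called (2.10, adjusted p = 0.0870), whereas that from High-Fli1+ was (3.61, adjusted p = 0.0255). The scavenger receptor marco and mfap4 were listed at 0 in Low-Fli1+ replicate 1 and at 8.30 and 6.25 FPKM in replicate 2. Of 21 macrophage genes tested, 4 were called higher and 0 lower (median 1.3), 1 of them spi1b, which also stands among the shared genes. 8 more were below the filter. Of the 4 calls, 0 without Fli1- replicate 1, 1 without Fli1- replicate 2 and 2 without Low-Fli1+ replicate 2 were kept.

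**Figure D3:**
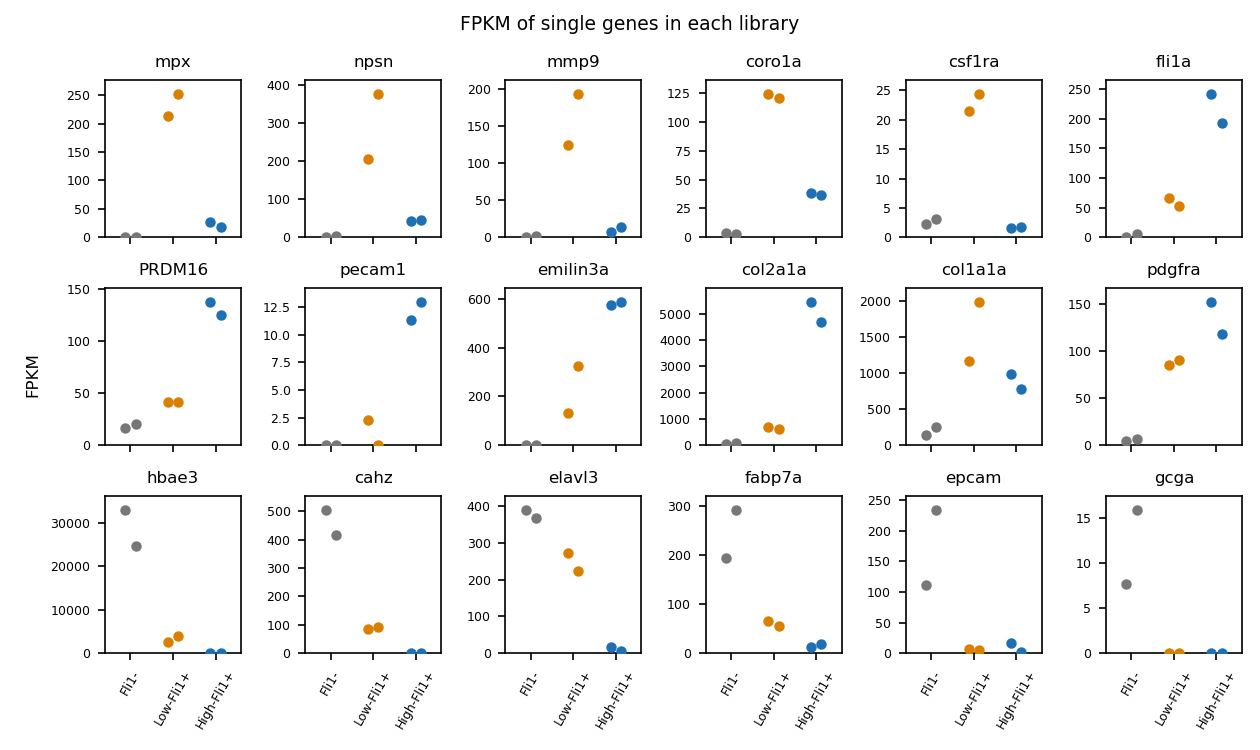
FPKM (vertical, linear axis from 0, a separate scale in each panel) of 18 genes in the 2 libraries of each population, 1 point per library. In the first 5 panels (mpx, npsn, mmp9, coro1a and csf1ra) both Low-Fli1+ points lie above all other points, while col2a1a is far higher in High-Fli1+ and the red cell, neural and epithelial genes of the last row are highest in Fli1- libraries.

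Most cartilage matrix genes rose in Low-Fli1+ cells, and many of those were higher again in High-Fli1+ cells. The matrix glycoprotein gene emilin3a had the largest rise of any called gene, at 0 and 1.36 FPKM in the Fli1- libraries, 132 and 327 in the Low-Fli1+ pair and 573 and 586 in the High-Fli1+ pair (log2 fold change 7.08 ± 0.56, adjusted p = 0.0200). The Low-Fli1+ libraries stood apart from each other, replicate 2 the higher, and lay between the other populations. Type II collagen, col2a1a, the main fibre of cartilage, stood at 55.2 and 73.5 FPKM in the Fli1- libraries, 674 and 600.2 in the Low-Fli1+ pair and 5432 and 4666 in the High-Fli1+ pair (log2 fold change 3.30 ± 0.30, adjusted p = 0.0200). Its Low-Fli1+ level was below that of High-Fli1+ (-2.98, adjusted p = 0.0155). Aggrecan, acana, the large cartilage proteoglycan, stood at 0.998 and 1.6 FPKM in the Fli1- libraries, 33.5 and 47.7 in the Low-Fli1+ pair and 422 and 362 in the High-Fli1+ pair (log2 fold change 4.17 ± 0.29, adjusted p = 0.0181). The type IX collagen gene col9a1a stood at 6.13 and 5.46 FPKM in the Fli1- libraries, 93.1 and 93.6 in the Low-Fli1+ pair and 736 and 626 in the High-Fli1+ pair (log2 fold change 3.80 ± 0.21, adjusted p = 0.00950), and both Low-Fli1+ values were about equal. The FGF-binding protein gene fgfbp2b stood at 0.0674 and 2.69 FPKM in the Fli1- libraries, 55.9 and 66.3 in the Low-Fli1+ pair and 548 and 665 in the High-Fli1+ pair (log2 fold change 4.96 ± 0.57, adjusted p = 0.0243).

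Matrilin, matn1, also differed widely between the positive populations, at 3.06 and 10.1 FPKM in the Fli1- libraries, 50.7 and 82.8 in the Low-Fli1+ pair and 3214 and 2432 in the High-Fli1+ pair. It rose by 3.29 against Fli1- (adjusted p = 0.0384) and was lower than in High-Fli1+ by -5.41 (adjusted p = 0.0146). Chondromodulin, listed as lect1, an inhibitor of vessel growth made by cartilage, was at 2.30 and 4.87 against 50.1 and 47.1 FPKM (log2 fold change 3.49 ± 0.33, adjusted p = 0.0201). The collagen of hypertrophic cartilage and bone, col10a1a, was at 1.37 and 3.43 against 47.1 and 34 FPKM (log2 fold change 3.66 ± 0.39, adjusted p = 0.0227). The cartilage master regulator sox9a was at 52.5 and 68.7 against 217 and 248 FPKM (log2 fold change 1.93 ± 0.25, adjusted p = 0.0281). Of 38 cartilage and bone genes tested, 23 were called higher and 0 lower, 28 had both Low-Fli1+ libraries above both Fli1- libraries, and the median was 2.24. In 15 of the genes tested, Low-Fli1+ was called lower than High-Fli1+, where 0.912% of all genes were, and in 0 it was called higher. Summed FPKM came to 561 and 673, 3341 and 3749 and 22008 and 18946 in Fli1-, Low-Fli1+ and High-Fli1+ libraries. COMP (3.53 and 11.5 against 19.3 and 51.3 FPKM) and runx2a, a bone regulator (1.01 and 0.838 against 4.16 and 12.1 FPKM), were not called. Of the 23 calls, 13 without Fli1- replicate 1, 17 without Fli1- replicate 2 and 16 without Low-Fli1+ replicate 2 were kept.

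Many connective tissue matrix genes rose too. The median member was at 44.2 and 32.3 FPKM in the Low-Fli1+ pair and at 79.3 and 74.8 in the High-Fli1+ pair. Type I collagen, the chief fibre of skin, bone and tendon, was at 139 and 252 FPKM in the Fli1- libraries, 1168 and 1979 in the Low-Fli1+ pair and 989 and 783 in the High-Fli1+ pair for col1a1a (log2 fold change 3.01 ± 0.44, adjusted p = 0.0329). Both Low-Fli1+ values of col1a1a were above all others, though the difference from High-Fli1+ was not called (0.79, adjusted p = 0.360). For col1a2 the values were 38.4 and 80.5 FPKM in the Fli1- libraries, 392 and 525 in the Low-Fli1+ pair and 498 and 413 in the High-Fli1+ pair (log2 fold change 3.0 ± 0.40, adjusted p = 0.0287). Decorin, dcn, a proteoglycan that binds collagen fibres, stood at 7.05 and 9.37 FPKM in the Fli1- libraries, 73.4 and 73.9 in the Low-Fli1+ pair and 109 and 83.4 in the High-Fli1+ pair (log2 fold change 3.03 ± 0.26, adjusted p = 0.0200), and the Low-Fli1+ libraries were nearly equal. The network collagen gene col8a2 stood at 0.521 and 3.65 FPKM in the Fli1- libraries, 71.2 and 64.1 in the Low-Fli1+ pair and 318 and 273 in the High-Fli1+ pair (log2 fold change 4.69 ± 0.52, adjusted p = 0.0234). The collagens col5a1 (17.5 and 28.7 to 211 and 246 FPKM, log2 fold change 3.29 ± 0.30, adjusted p = 0.0200) and col6a3 (4.50 and 8.02 to 91.4 and 52.1 FPKM, log2 fold change 3.32 ± 0.40, adjusted p = 0.0253) rose by similar amounts.

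Among enzymes and partners of collagen assembly 3 more genes rose. The crosslinking oxidase loxl1 was at 0.836 and 2.04 against 37.3 and 28.5 FPKM (log2 fold change 3.83 ± 0.40, adjusted p = 0.0218). The gene pcolcea, whose product speeds procollagen processing, was at 1.27 and 0.193 against 27.2 and 16.9 FPKM (log2 fold change 3.77 ± 0.46, adjusted p = 0.0257). The fibulin FBLN1 was at 3.73 and 4.98 against 49.9 and 60.9 FPKM (log2 fold change 3.4 ± 0.28, adjusted p = 0.0200). Of 45 connective tissue genes tested, 21 were called higher and 0 lower, and 39 had both Low-Fli1+ libraries above both Fli1- libraries (median 2.31). Against High-Fli1+, 3 were called lower and 0 higher in Low-Fli1+, where 0.912% and 3.80% of all genes were. Summed FPKM came to 674 and 1202, 5037 and 6739 and 8019 and 6381 in Fli1-, Low-Fli1+ and High-Fli1+ libraries. Lumican, lum, one of the defining markers (3.46 and 3.84 against 10.7 and 17.6 FPKM), was not called (adjusted p = 0.0637), nor was col6a1 (3.73 and 12.1 against 42.5 and 42.6 FPKM, adjusted p = 0.0568). Of the 21 calls, 12 without Fli1- replicate 1, 12 without Fli1- replicate 2 and 13 without Low-Fli1+ replicate 2 were kept.

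Among fibroblast-like and mural genes, the latter of the cells that wrap vessels, several receptors and transcription factors of mesenchyme rose. The platelet-derived growth factor receptor pdgfra stood at 4.86 and 6.96 FPKM in the Fli1- libraries, 85.4 and 90.5 in the Low-Fli1+ pair and 152 and 118 in the High-Fli1+ pair (log2 fold change 3.70 ± 0.27, adjusted p = 0.0181). For its relative PDGFRB the values were 2.75 and 8.21 FPKM in the Fli1- libraries, 60.2 and 72.7 in the Low-Fli1+ pair and 83.9 and 68.3 in the High-Fli1+ pair (log2 fold change 3.51 ± 0.45, adjusted p = 0.0279). The proteoglycan cspg4 of pericytes and mesenchyme stood at 2.82 and 4.09 against 53.1 and 66.4 FPKM (log2 fold change 3.78 ± 0.29, adjusted p = 0.0181). The forkhead genes foxc1a (2.08 and 2.48 to 30.9 and 18.9 FPKM, log2 fold change 2.94 ± 0.33, adjusted p = 0.0239) and foxc1b (2.03 and 4.30 to 57.6 and 60.9 FPKM, log2 fold change 3.91 ± 0.33, adjusted p = 0.0200) also rose. The smooth muscle actin acta2 was at 6.65 and 13.4 FPKM in Fli1- and at 5.80 and 4.70 in Low-Fli1+ libraries, which was not called (-0.76). The smooth muscle actin-binding gene tagln, which other tissues also express, was called lower (3.88 and 8.03 FPKM in Fli1- libraries, listed at 0 in both Low-Fli1+ libraries). The mural receptor notch3 was at 24.5 and 46.1 against 32.4 and 30.7 FPKM, with overlapping groups. Of 32 genes tested, 10 were called higher and 1 lower (median 1.61). Not called were tbx18 (0 and 1.18 against 9.08 and 11.3 FPKM) and foxl1 (0.372 and 0.779 against 13.4 and 6.2 FPKM). Of the 11 calls, 6 without Fli1- replicate 1, 6 without Fli1- replicate 2 and 6 without Low-Fli1+ replicate 2 were kept.

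Transcription factors of the pharyngeal arches and neural crest included mesenchyme factors that rose and 1 homeobox gene that was called lower. The paired-related homeobox gene prrx1b stood at 3.19 and 3.97 FPKM in the Fli1- libraries, 38.5 and 105 in the Low-Fli1+ pair and 189.6 and 154 in the High-Fli1+ pair (log2 fold change 3.82 ± 0.48, adjusted p = 0.0257). Its paralog prrx1a was at 2.35 and 3.49 FPKM in the Fli1- libraries, 34 and 28.9 in the Low-Fli1+ pair and 62.3 and 48.9 in the High-Fli1+ pair (log2 fold change 3.06 ± 0.31, adjusted p = 0.0211). The basic helix-loop-helix genes twist1a (2.81 and 5.69 to 35.4 and 27.8 FPKM, log2 fold change 2.68 ± 0.36, adjusted p = 0.0296), twist1b (0.525 and 1.92 to 9.95 and 17.2 FPKM, log2 fold change 2.74 ± 0.50, adjusted p = 0.0488) and twist3 (1.66 and 0.700 to 11.6 and 13.9 FPKM, log2 fold change 2.69 ± 0.41, adjusted p = 0.0349) rose too. Their Low-Fli1+ levels lay between those of Fli1- and High-Fli1+ libraries in all 5. The distal-less gene dlx1a was listed at 0 in both Low-Fli1+ libraries, against 11.2 and 9.88 FPKM in the Fli1- libraries and 30.1 and 26.3 in the High-Fli1+ pair, and was called lower than in either (adjusted p = 0.0243 and 0.0121). Whether the zeros of dlx1a are absent RNA or failed estimates was not tested. The relative twist2 (0.297 and 2.56 against 17.1 and 12 FPKM) and the endothelin receptor gene ednraa (5.44 and 20.7 against 224 and 61.0 FPKM) were not called. Of 39 such genes tested, 7 were called higher and 1 lower (median 0.90), and of the 8 calls 3 without Fli1- replicate 1, 3 without Fli1- replicate 2 and 3 without Low-Fli1+ replicate 2 were kept.

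Several basement membrane, protease and integrin genes rose. Integrin chain itgb3b, which platelets, endothelium and osteoclasts use, stood at 0.0566 and 0.446 FPKM in the Fli1- libraries, 19.1 and 22.9 in the Low-Fli1+ pair and 10.5 and 9.0 in the High-Fli1+ pair (log2 fold change 4.15 ± 0.44, adjusted p = 0.0220). The gelatinase mmp2 stood at 8.76 and 12.8 FPKM in the Fli1- libraries, 77.9 and 125 in the Low-Fli1+ pair and 190.5 and 147 in the High-Fli1+ pair (log2 fold change 3.10 ± 0.34, adjusted p = 0.0227). Its membrane-bound activators rose as well. The first, mmp14a, went from 3.07 and 5.70 to 50.7 and 37.4 FPKM (log2 fold change 3.09 ± 0.35, adjusted p = 0.0239). The other, mmp14b, went from 4.93 and 7.68 to 49.1 and 49.7 FPKM (log2 fold change 2.81 ± 0.28, adjusted p = 0.0210). The laminin chain lama2, of muscle and connective tissue basement membrane, was at 2.17 and 2.4 against 15.7 and 28.5 FPKM (log2 fold change 2.76 ± 0.40, adjusted p = 0.0328). With mmp9, 16 of 36 members tested were called higher and 0 lower (median 1.89). The remaining 10 calls, for laminins, nidogens, timp2a and integrin chains, rose by between 1.84 (itgb1a) and 2.76 (nid1b). The metalloproteases adamts1 (4.16 and 9.86 against 21.5 and 49.8 FPKM) and adam12 (3.34 and 2.21 against 12.3 and 17.1 FPKM) were not called. Of the 16 calls, 6 without Fli1- replicate 1, 11 without Fli1- replicate 2 and 10 without Low-Fli1+ replicate 2 were kept.

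Growth factor pathway genes rose for several ligands, receptors and response genes. The matricellular protein gene ctgfb (0.496 and 1.46 FPKM in the Fli1- libraries, 42.7 and 25.9 in the Low-Fli1+ pair and 72.8 and 68.9 in the High-Fli1+ pair, log2 fold change 4.16 ± 0.40, adjusted p = 0.0207) was higher. Its relative ctgfa (23.1 and 28.2 to 75 and 143 FPKM, log2 fold change 1.98 ± 0.34, adjusted p = 0.0455) was higher too. Both are known targets of Yap and TGF-beta. The TGF-beta-induced adhesion protein gene tgfbi stood at 11.1 and 22.7 FPKM in the Fli1- libraries, 182 and 348 in the Low-Fli1+ pair and 297 and 262 in the High-Fli1+ pair (log2 fold change 3.90 ± 0.44, adjusted p = 0.0239). The growth factor igf2b (4.42 and 6.02 to 25.7 and 75.5 FPKM, adjusted p = 0.0496), the BMP receptor bmpr1ba (5.28 and 5.48 to 19.6 and 31.0 FPKM, adjusted p = 0.0363) and the FGF receptor fgfr1a (14.4 and 10.8 to 40.4 and 59.5 FPKM, adjusted p = 0.0467) rose by 2.87, 2.01 and 1.89. The Yap target cyr61 (11.8 and 29.9 against 78.0 and 181 FPKM) and igfbp5a, an IGF-binding protein (10.8 and 12.2 against 1.51 and 1.01 FPKM), were not called (adjusted p = 0.0686 and 0.0819), although the latter was lower in both Low-Fli1+ libraries. In all 8 of 40 were called higher and 0 lower (median 1.1). Of the 8 calls, 1 without Fli1- replicate 1, 2 without Fli1- replicate 2 and 5 without Low-Fli1+ replicate 2 were kept.

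Endothelial core genes gave 1 call and no common direction between Fli1- and Low-Fli1+ cells. The vascular cadherin cdh5 stood at 3.62 and 1.47 FPKM in the Fli1- libraries, 2.81 and 0 in the Low-Fli1+ pair and 14.4 and 17.0 in the High-Fli1+ pair. The VEGF receptor kdrl stood at 1.19 and 0.725 FPKM in the Fli1- libraries, 1.98 and 4.80 in the Low-Fli1+ pair and 15.06 and 18.1 in the High-Fli1+ pair. The adhesion molecule pecam1 had 2.29 FPKM in Low-Fli1+ replicate 1, was listed at 0 in replicate 2 and in both Fli1- libraries, and reached 11.3 and 13 in the High-Fli1+ pair. These 3 were low in both populations compared and highest in both High-Fli1+ libraries. The receptor kinase tie1 stood at 0.208 and 0 FPKM in the Fli1- libraries, 1.26 and 1.62 in the Low-Fli1+ pair and 14.3 and 14.3 in the High-Fli1+ pair. The gene of a factor that vessels secrete, egfl7, was at 0 and 0.267 FPKM in the Fli1- libraries, 0 and 9.01 in the Low-Fli1+ pair and 24.5 and 32.0 in the High-Fli1+ pair. The adaptor gene she was at 0.976 and 1.27 FPKM in the Fli1- libraries, 1.66 and 0.887 in the Low-Fli1+ pair and 10.4 and 14.9 in the High-Fli1+ pair. None of these 6 defining endothelial markers was called against Fli1- (adjusted p from 0.243 to 0.944), and tie1 was called lower than in High-Fli1+ (adjusted p = 0.0428). Of 36 endothelial core genes chosen, 33 were in the table and 25 were tested, with 1 called higher, 0 lower and a median of 0.08. The call was mmrn2b, a multimerin of endothelial matrix (1.74 and 1.86 FPKM in the Fli1- libraries, 12.1 and 12.2 in the Low-Fli1+ pair and 25.6 and 24.7 in the High-Fli1+ pair, log2 fold change 2.24 ± 0.34, adjusted p = 0.0349). It was lost without either Fli1- library (0 calls in each) and kept without Low-Fli1+ replicate 2. The junction protein gene cldn5a (14.6 and 19.3 against 0 and 11.7 FPKM) and the guidance receptor gene robo4 (9.50 and 7.46 against 1.36 and 2.97 FPKM) had lower values in Low-Fli1+ libraries, which were not called (adjusted p = 0.315 and 0.140). Both Low-Fli1+ libraries lay above both Fli1- libraries for 7 of the 25 genes and below both for 5. Over all genes this held for 19.1% and 30.9%. Among the 6 markers, kdrl and tie1 had both Low-Fli1+ values above both Fli1- values. Summed over the core list, FPKM came to 147 and 135 in the Fli1- libraries, 138 and 169.97 in the Low-Fli1+ pair and 300.3 and 330.2 in the High-Fli1+ pair.

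Among genes of angiogenic signalling, which are not limited to endothelium, 5 of 39 tested were called higher and 0 lower, and 21 had both Low-Fli1+ libraries above both Fli1- libraries (median 1.08). The flow-responsive factor klf2a stood at 4.47 and 6.06 FPKM in the Fli1- libraries, 29.0 and 34.2 in the Low-Fli1+ pair and 108 and 122 in the High-Fli1+ pair (log2 fold change 2.39 ± 0.26, adjusted p = 0.0228). For klf2b the values were 15.5 and 12.1 FPKM in the Fli1- libraries, 68.3 and 50.0 in the Low-Fli1+ pair and 235 and 213 in the High-Fli1+ pair (log2 fold change 2.01 ± 0.26, adjusted p = 0.0279). Both were lower in Low-Fli1+ than in High-Fli1+ cells (adjusted p = 0.0265 and 0.0248). The BMP receptor acvrl1, needed for vessel calibre, was at 1.76 and 1.55 against 13.9 and 18.0 FPKM (log2 fold change 2.66 ± 0.37, adjusted p = 0.0309). The guidance ligand sema3d was at 2.00 and 3.89 against 17.7 and 30.5 FPKM (log2 fold change 2.66 ± 0.41, adjusted p = 0.0366). The chemokine cxcl12a was at 4.61 and 6.28 against 25.9 and 32.4 FPKM (log2 fold change 2.23 ± 0.30, adjusted p = 0.0292). The Tie2 ligand angpt2b (0.680 and 0.909 against 19.4 and 5.74 FPKM) and the chemokine cxcl12b (0.324 and 2.67 against 8.90 and 17.0 FPKM) were higher in both Low-Fli1+ libraries but not called (adjusted p = 0.106 and 0.0841). Of the 5 calls, 1 without Fli1- replicate 1, 1 without Fli1- replicate 2 and 3 without Low-Fli1+ replicate 2 were kept. Of 30 arterial, venous and Notch genes tested, notch2 was the 1 called (7.92 and 8.17 FPKM in the Fli1- libraries, 43.9 and 51.6 in the Low-Fli1+ pair and 65.4 and 68.8 in the High-Fli1+ pair, log2 fold change 2.43 ± 0.23, adjusted p = 0.0207). It was kept without each of those 3 libraries. The lymphatic and venous VEGF receptor flt4 (1.22 and 0.492 against 6.81 and 11.9 FPKM, adjusted p = 0.0621) and the water channel aqp1a.1 (80.5 and 63.6 against 8.10 and 23.1 FPKM, adjusted p = 0.0643) had differences of 2.46 and -2.29 that were not called. Markers of other cell types differed at the same time, with the leukocyte, cartilage and connective tissue sums given above, and their part in these differences was not tested.

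**Figure D4:**
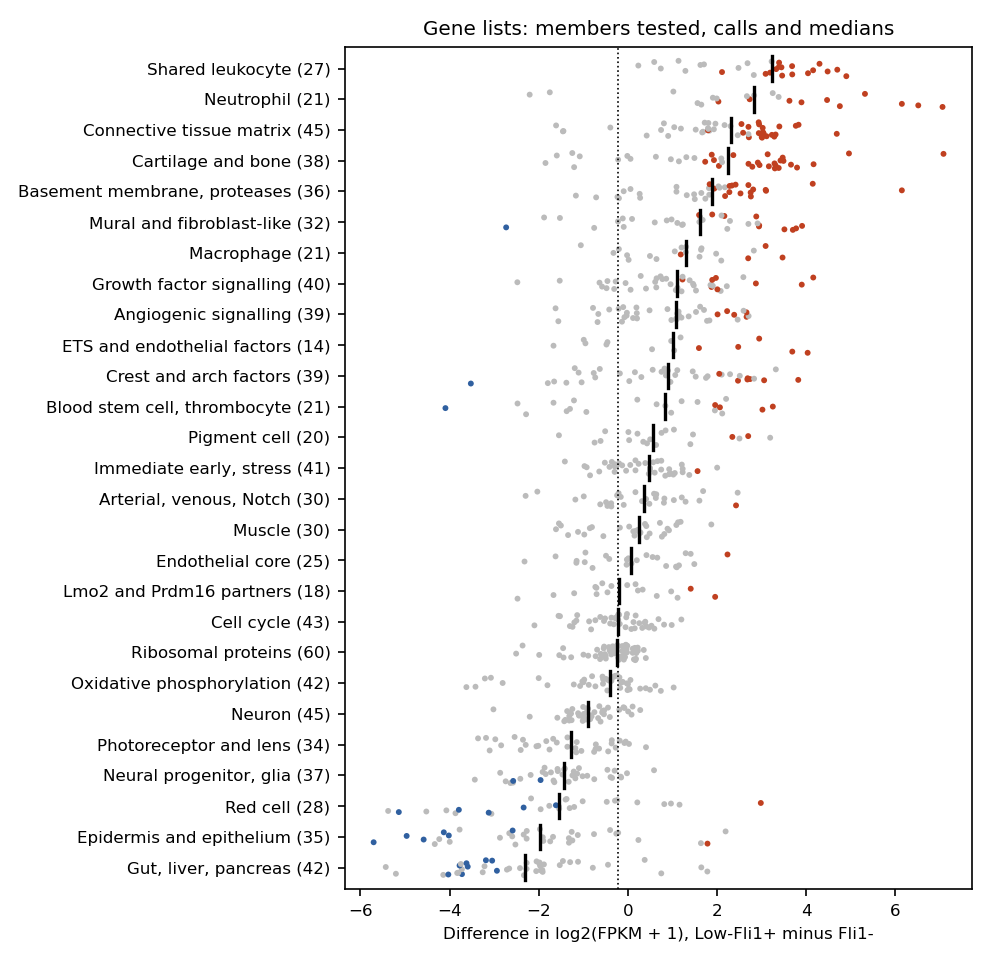
Difference in log2(FPKM + 1) between Low-Fli1+ and Fli1- cells (horizontal) for the tested members of 27 gene lists (vertical, number tested in brackets), 1 point per gene. Red points were called higher, blue points lower and grey points not called in limma, black bars are list medians and the dotted line is the median of all genes tested (-0.21). Shared leukocyte genes have the highest median (3.23) and gut, liver and pancreas genes the lowest (-2.30).

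Several red cell transcripts were lower in Low-Fli1+ than in Fli1- cells yet far above their level in High-Fli1+ cells. The embryonic alpha globin hbae3 stood at 32964 and 24615 FPKM in the Fli1- libraries, 2685 and 3979 in the Low-Fli1+ pair and 57.9 and 32.7 in the High-Fli1+ pair (log2 fold change -3.12 ± 0.49, adjusted p = 0.0370). Low-Fli1+ cells lay between the others, and their level was above that of High-Fli1+ by 6.2 (adjusted p = 0.00994). The red cell carbonic anhydrase cahz stood at 504 and 418 FPKM in the Fli1- libraries, 86.6 and 93.4 in the Low-Fli1+ pair and 0.904 and 1.24 in the High-Fli1+ pair (log2 fold change -2.34 ± 0.23, adjusted p = 0.0210; above High-Fli1+ by 5.46, adjusted p = 0.00588). The beta globin hbbe2 was at 2794 and 2249.9 against 123 and 263 FPKM (log2 fold change -3.79 ± 0.59, adjusted p = 0.0372), and the membrane skeleton gene sptb at 102 and 116 against 32.8 and 37.0 FPKM (log2 fold change -1.61 ± 0.26, adjusted p = 0.0401). The globin entry hbz was at 59.4 and 31.2 FPKM in Fli1- and at 0 and 0.565 in Low-Fli1+ libraries (adjusted p = 0.0233). Globin copies are near-identical, so the division of reads among them is uncertain. The globins hbbe1.1 (4061 and 4013 against 77.3 and 393 FPKM) and hbbe1.2 (1786 and 2188 against 15.5 and 136 FPKM) were far apart between the Low-Fli1+ libraries and were not called. The heme synthesis enzyme alas2 (414 and 234 against 120.1 and 94.1 FPKM) and the anion exchanger slc4a1a (278 and 264 against 106 and 112 FPKM) were not called either. Of 28 red cell genes tested, 5 were called lower and 1 higher, and 21 had both Low-Fli1+ libraries below both Fli1- libraries, where 30.9% of all genes did (median -1.54). The higher one was blf, a zinc-finger gene (6.47 and 7.32 to 82.6 and 45.5 FPKM, log2 fold change 2.98 ± 0.34, adjusted p = 0.0239). In 13 of them Low-Fli1+ was called above High-Fli1+, where 3.80% of all genes were. Of the 6 calls, 2 without Fli1- replicate 1, 2 without Fli1- replicate 2 and 3 without Low-Fli1+ replicate 2 were kept.

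Thrombocyte and blood stem cell genes went both ways. The thrombopoietin receptor mpl stood at 6.13 and 8.23 FPKM in the Low-Fli1+ pair and 10.6 and 7.66 in the High-Fli1+ pair. It was listed at 0 in both Fli1- libraries (called higher, adjusted p = 0.0402). The clotting factor gene f13a1b stood at 1.63 and 3.88 FPKM in the Fli1- libraries, 32.9 and 33.5 in the Low-Fli1+ pair and 58.4 and 37.8 in the High-Fli1+ pair (log2 fold change 3.25 ± 0.41, adjusted p = 0.0257). The thrombospondin gene thbs1b was at 9.91 and 14.2 FPKM in the Fli1- libraries, 55.2 and 50.6 in the Low-Fli1+ pair and 308 and 288 in the High-Fli1+ pair (log2 fold change 2.07 ± 0.25, adjusted p = 0.0251). The platelet glycoprotein gp9 fell, from 16.2 and 15.9 FPKM in Fli1- libraries, and is listed at 0 in both Low-Fli1+ libraries (adjusted p = 0.0257). The integrin itga2b (0 and 0 against 3.98 and 2.01 FPKM), the glycoprotein gp1bb (24.1 and 13.3 against 12 and 3.57 FPKM) and runx1, the regulator of blood stem cell emergence (2.72 and 5.37 against 0 and 0 FPKM), were not called. With mecom, 4 of 21 tested were called higher and 1 lower (median 0.84), and of the 5 calls 1 without Fli1- replicate 1, 2 without Fli1- replicate 2 and 2 without Low-Fli1+ replicate 2 were kept.

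Neuronal transcripts were abundant in Low-Fli1+ cells. Most values were below those of Fli1- cells without a call, and many genes were called above High-Fli1+ cells. The RNA-binding protein gene elavl3, a marker of young neurons, stood at 389 and 368 FPKM in the Fli1- libraries, 274 and 223 in the Low-Fli1+ pair and 16.3 and 5.17 in the High-Fli1+ pair. The tubulin-binding stathmin stmn1b stood at 473 and 503 FPKM in the Fli1- libraries, 231 and 178 in the Low-Fli1+ pair and 20.3 and 15.7 in the High-Fli1+ pair. Neither was called against Fli1- (-0.61, adjusted p = 0.513, and -1.26, adjusted p = 0.0568), and both were called above High-Fli1+ (4.59, adjusted p = 0.0167, and 3.43, adjusted p = 0.00956). The synaptic gene snap25a (229 and 152 against 139 and 60.7 FPKM), the growth cone gene gap43 (121 and 84.8 against 69.9 and 44.7 FPKM) and elavl4 (251 and 197 against 97.9 and 69.0 FPKM) had both Low-Fli1+ values below both Fli1- values without a call. Of 45 neuronal genes tested, 0 were called higher and 0 lower (median -0.89). At an unadjusted p under 0.05 in limma, 9 were lower, beside 2462 of all 19088 genes. Both Low-Fli1+ libraries lay below both Fli1- libraries for 33 of them, where 30.9% of all genes did. In 25 of them Low-Fli1+ was called above High-Fli1+, where 3.80% of all genes were. Summed FPKM came to 5356 and 4637 in the Fli1- libraries, 3088 and 2260.2 in the Low-Fli1+ pair and 433 and 201 in the High-Fli1+ pair, and Low-Fli1+ replicate 1 was above replicate 2 for 39 genes. The widest uncalled gaps were in gad1b, which makes GABA (77.4 and 45.7 against 17.8 and 1.97 FPKM), and the synuclein sncb (60.3 and 43.4 against 24.3 and 4.08 FPKM).

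Among neural progenitor and glia genes, 2 of 37 were called lower and 0 higher (median -1.43). The radial glia lipid carrier fabp7a stood at 195 and 291 FPKM in the Fli1- libraries, 65.4 and 55.9 in the Low-Fli1+ pair and 11.8 and 18.4 in the High-Fli1+ pair (log2 fold change -1.96 ± 0.32, adjusted p = 0.0403; above High-Fli1+ by 1.96, adjusted p = 0.0343). The neural SoxB factor sox19b was at 5.24 and 4.68 FPKM in Fli1- and listed at 0 in both Low-Fli1+ libraries (adjusted p = 0.0453). The progenitor factor sox2 (36.6 and 46.1 against 9.87 and 15.6 FPKM) and the glial filament gfap (19.7 and 26.2 against 8.18 and 5.07 FPKM) were lower in both Low-Fli1+ libraries and not called. The Notch target her4.1 (49.1 and 46.6 against 0.139 and 16.9 FPKM) and the motor neuron and glial factor olig2 (9.45 and 16.3 against 0 and 2.41 FPKM) had the same pattern without a call. Without Fli1- replicate 1, without Fli1- replicate 2 and without Low-Fli1+ replicate 2, 0, 1 and 0 of the 2 calls were kept. None of 34 photoreceptor and lens genes tested was called in limma, with 11 lower and 0 higher at an unadjusted p under 0.05 (median -1.27). Among all 19088 genes, 2462 were lower and 1683 higher at that threshold. Rhodopsin, rho, stood at 78.2 and 38.7 FPKM in the Fli1- libraries, 43.5 and 13.2 in the Low-Fli1+ pair and 1.84 and 0 in the High-Fli1+ pair. The cone transducin gnat2 was at 20 and 12.7 FPKM in the Fli1- libraries, 14.9 and 8.85 in the Low-Fli1+ pair and 0 and 0 in the High-Fli1+ pair. Fli1- and Low-Fli1+ values overlapped in both. The cone genes opn1sw1 and pde6h were at 11.1 and 5.24 FPKM in Low-Fli1+ replicate 1 and listed at 0 in replicate 2. The lens crystallins cryba2a (13.8 and 15.13 against 0 and 1.26 FPKM) and crygn2 (15.8 and 3.90 against 0 and 0 FPKM) had the largest uncalled differences.

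Several epithelial genes fell. The adhesion molecule epcam stood at 111 and 233 FPKM in the Fli1- libraries, 6.28 and 5.28 in the Low-Fli1+ pair and 16.1 and 2.24 in the High-Fli1+ pair (log2 fold change -4.58 ± 0.81, adjusted p = 0.0467), so that Low-Fli1+ and High-Fli1+ values overlapped and both were below Fli1-. The keratins krt91 (65.5 and 174 FPKM in the Fli1- libraries, 3.27 and 0 in the Low-Fli1+ pair and 14.0 and 12.4 in the High-Fli1+ pair, adjusted p = 0.0307) and krt97, which is not on the list (28.4 and 28.9 against 0.0973 and 0 FPKM, adjusted p = 0.0243), were called lower. So were the claudins cldn7b (26.4 and 36.8 against 0.0623 and 0 FPKM, adjusted p = 0.0282) and cldnh. The epithelial ETS factor elf3 (42.5 and 59.21 against 0.0618 and 3.06 FPKM, adjusted p = 0.0409), also outside the list, was called lower too. The genes cldnh, agr2, a mucous cell protein, and icn2, a skin S100 protein, were called lower and listed at 0 in both Low-Fli1+ libraries. In Fli1- libraries cldnh was at 15 and 15.4, agr2 at 12.3 and 22.1 and icn2 at 5.80 and 4.30 FPKM. The keratin krt4 (289.8 and 368 against 99.9 and 31.1 FPKM), krt5 (74.1 and 173 against 16.7 and 0.822 FPKM) and the cadherin cdh1 (37.2 and 43.8 against 3.68 and 0.0342 FPKM) were below Fli1- in both libraries and not called. Of 35 epithelial genes tested, 6 were called lower and 1 higher, and 28 had both Low-Fli1+ libraries below both Fli1- libraries (median -1.97). The higher one was krt8, a keratin of simple epithelia (83.3 and 109 against 308 and 357 FPKM, log2 fold change 1.79). Keratin copies share sequence, so their levels are uncertain. Of the 7 calls on the list, 1 without Fli1- replicate 1, 1 without Fli1- replicate 2 and 3 without Low-Fli1+ replicate 2 were kept.

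Genes of gut, liver and pancreas had the lowest median of the 27 lists. The islet hormones glucagon (gcga) and somatostatin (sst2) were at 7.67 and 15.8 and 11 and 14.7 FPKM in Fli1- libraries and listed at 0 in all Low-Fli1+ and High-Fli1+ libraries (adjusted p = 0.0327 and 0.0252). The same held for the intestinal lipid carriers fabp1b.1 (16.6 and 14.1 FPKM in Fli1-) and fabp6 (22.1 and 6.53), the trypsin prss59.2 (15.5 and 8.15) and the liver and kidney factor hnf1ba (10.3 and 6.34), all called lower. Insulin, ins, stood at 116 and 211 FPKM in Fli1- libraries, was listed at 0 in Low-Fli1+ replicate 1 and stood at 12.3 FPKM in replicate 2, which was not called (adjusted p = 0.0677). Transferrin, tfa (74.5 and 145 against 7.08 and 0 FPKM), and the apolipoprotein apoa1b (135 and 151 against 12.1 and 6.77 FPKM) of liver were not called either (adjusted p = 0.0534 and 0.0867). Of 42 tested, 8 were called lower and 0 higher, 36 had both Low-Fli1+ libraries below both Fli1- libraries and 22 were listed at 0 in both Low-Fli1+ libraries (median -2.30). Those 22 passed the filter through their Fli1- values alone, so their negative sign was fixed in advance. They are part of the 36 or of the median, which are therefore description only. Summed FPKM came to 888 and 1072, 222 and 212 and 67.1 and 55.0 in Fli1-, Low-Fli1+ and High-Fli1+ libraries. Of the 8 calls, 7 without Fli1- replicate 1, 7 without Fli1- replicate 2 and 6 without Low-Fli1+ replicate 2 were kept.

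Muscle genes gave no call, and pigment cell genes gave 2. In skeletal muscle genes actc1b, mylpfa, ckma and acta1b the 2 groups overlapped, and Low-Fli1+ replicate 1 listed mylpfa and ckma at 0 while replicate 2 had 9.29 and 6.62 FPKM, against 7.76 and 6.55 and 5.11 and 4.88 FPKM in Fli1- libraries. Limma called 0 of 30 muscle genes higher and 0 lower, with 2 and 2 at an unadjusted p under 0.05 (median 0.25). That threshold was passed by 1683 higher and 2462 lower of all 19088 genes. The myogenic factor myf5 was at 0.260 and 0.641 against 2.64 and 6.63 FPKM and the fast troponin tnnc2 at 3.79 and 12.2 against 5.75 and 0 FPKM. The heart muscle markers myl7 and tnnt2a were listed at 0 in all Low-Fli1+ and High-Fli1+ libraries and were below the filter. The other heart muscle marker, nppa, passed it and was not called. It was at 0 and 0.320 FPKM in the Fli1- libraries, 5.82 and 0 in the Low-Fli1+ pair and 0.680 and 0 in the High-Fli1+ pair. Among 20 pigment cell genes, csf1ra and aox5, an aldehyde oxidase of yellow pigment cells (0.106 and 0.313 FPKM in Fli1- and 4.68 and 5.59 in Low-Fli1+ libraries, listed at 0 in both High-Fli1+ libraries, log2 fold change 2.34 ± 0.42, adjusted p = 0.0485), were called higher. The pteridine enzyme gch2 (0.134 and 2.11 against 8.91 and 28.8 FPKM) and the pigment cell receptor ltk (1.13 and 2.10 against 12.8 and 14.4 FPKM) were higher in both Low-Fli1+ libraries and not called. The melanin genes pmela, dct and tyrp1b and the iridophore gene pnp4a were not called. Over all genes 2.23% were called higher, and csf1ra is counted among the macrophage genes as well. Both Low-Fli1+ libraries lay above both Fli1- libraries for 9 of the 20 pigment cell genes, where 19.1% of all genes did. Of the 2 pigment calls, 1 without Fli1- replicate 1, 1 without Fli1- replicate 2 and 1 without Low-Fli1+ replicate 2 were kept.

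The lists of cell upkeep gave no call. None of 43 cell cycle genes (1 higher and 6 lower at an unadjusted p under 0.05), 60 ribosomal protein genes (0 and 0) or 42 oxidative phosphorylation genes (0 and 6) was called in limma. Their medians were -0.21, -0.25 and -0.41, beside -0.21 for all genes. At an unadjusted p under 0.05 in limma, 1683 of all 19088 genes were higher and 2462 lower. The counts of these lists beside them are description and not a test. Ribosomal protein genes were higher in Low-Fli1+ replicate 2 than in replicate 1 for 58 of 60, with sums of 41516 and 17642 FPKM. The 2 of them listed at 0 in replicate 1, rps28 and rpl38, stood at 59.7 and 50.2 FPKM in replicate 2. The larger ribosomal sum belonged to replicate 2 in the other populations as well. Fli1- replicate 2 reached 39319 FPKM, where replicate 1 had 25822. Within High-Fli1+, replicate 2 summed to 60258 FPKM against 24428 for replicate 1. The respiratory genes ndufa2 and ndufa4 were listed at 0 in both Low-Fli1+ libraries, against 9.47 and 13.5 and 16.4 and 5.59 FPKM in Fli1- libraries, and were not called. The cyclin ccnb2 (6.75 and 11.2 against 4.18 and 0 FPKM) and cks1b (5.12 and 7.11 against 0 and 4.75 FPKM) had the largest cell cycle differences. Of 41 immediate early and stress genes, ier2, an early response gene, was called higher (100.2 and 98.5 FPKM in the Fli1- libraries, 288 and 303 in the Low-Fli1+ pair and 579 and 464 in the High-Fli1+ pair, log2 fold change 1.56 ± 0.23, adjusted p = 0.0344). That call was lost without Fli1- replicate 1, Fli1- replicate 2 or Low-Fli1+ replicate 2. The cytokine feedback gene socs3b (25 and 44.1 against 98.2 and 189 FPKM) and the chaperonin gene hspe1 (26.5 and 50.9 against 16 and 10.8 FPKM) were not called.

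Other large falls were in genes outside these groups. The small nucleolar RNA SNORA3, which guides RNA modification, stood at 560.3 and 463 FPKM in the Fli1- libraries and 1105 and 451 in the High-Fli1+ pair and was listed at 0 in both Low-Fli1+ libraries (adjusted p = 0.00762). It kept its call in 17 of 18 alternative settings, losing it without Low-Fli1+ replicate 1. How well libraries enriched for poly-A RNA measure small RNAs, here SNORA3 and U11, was not tested. The spliceosomal RNA U11 (12.4 and 89.8 FPKM in Fli1- libraries), the galectin lgals2b (87.2 and 64.4 FPKM) and the RNA-editing cofactor a1cf (23.9 and 19.5 FPKM) were listed at 0 in all Low-Fli1+ and High-Fli1+ libraries and called lower (adjusted p = 0.0493, 0.0187 and 0.0218). The calcium-binding s100t (36.4 and 22.2 against 0 and 0 FPKM) and the parvalbumin pvalb5 (16.2 and 47.1 FPKM in Fli1- libraries, at or near 0 in both Low-Fli1+ libraries) were called lower as well. The splicing gene snrpg (21.6 and 25.5 FPKM in the Fli1- libraries, 0 and 0 in the Low-Fli1+ pair and 20.4 and 49.8 in the High-Fli1+ pair) was called lower than in both other populations. So was the splicing and RNA decay gene lsm6 (30.9 and 42.1 FPKM in the Fli1- libraries, 0 and 0.236 in the Low-Fli1+ pair and 21.8 and 23.4 in the High-Fli1+ pair), and the endoplasmic reticulum gene ubxn4 followed (32.1 and 27.8 FPKM in the Fli1- libraries, 0 and 0.359 in the Low-Fli1+ pair and 18.4 and 14.6 in the High-Fli1+ pair). Against Fli1- their adjusted p was 0.0227, 0.0181 and 0.0200. Genes listed at 0 in both libraries of a population that reached 5 FPKM in each of the 4 others numbered 21 for Low-Fli1+, of which 19 were called lower, 7 for Fli1- and 38 for High-Fli1+. Whether these zeros are absent RNA or failed estimates was not tested.

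Placed against High-Fli1+, the genes called higher in Low-Fli1+ than in Fli1- cells were mostly not told apart from High-Fli1+. Of the 425, the mean was highest in Low-Fli1+ for 171 and between the other populations for 254. The direct contrast with High-Fli1+ called 31 of them above High-Fli1+, among them mpx, npsn, mmp9, mmp13a, coro1a, itgb2, spi1b, csf1ra, ctsba and aox5. It called 34 below, among them col2a1a, acana, matn1, col9a1a, lect1, fgfbp2b, sox9a, klf2a, klf2b and thbs1b, and 360 neither way. Over all genes the same contrast called 3.80% above and 0.912% below. Both contrasts use the same 2 Low-Fli1+ libraries, so calls in the first favour calls of the same direction in the second. These shares are therefore not an independent background for the counts here. Of the 243 genes called lower than in Fli1-, 132 had their lowest mean in Low-Fli1+ alone. The other 111 lay between or tied with High-Fli1+ for the lowest mean, as lgals2b, U11 and a1cf did at 0. In that set 8 were called above High-Fli1+, with hbae3, hbbe2, cahz, sptb and fabp7a among them, 38 below it, with dlx1a, lsm6, snrpg, ubxn4 and SNORA3 among them, and 197 neither way. The count of calls that also differed from High-Fli1+, 111 in all, was 0 without either Fli1- library and without Low-Fli1+ replicate 1, 416 without Low-Fli1+ replicate 2, and 2 and 1 without High-Fli1+ replicates 1 and 2.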

How the data were processed

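RNA sequencing of 3 cell populations of the zebrafish line Tg(fli1:EGFP), with 2 libraries each, was analysed from 1 deposited table. Per the file headers, the values are FPKM made by the authors, and no depth can be read from them. The aligner, counting tool, genome build and annotation are not given in the sources used here. Gene names are those of the deposited table, and 22697 of them (77.9%) were found in the reference name table. Of 29144 entries, 18 whose names had turned into dates were left out.

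Values were taken as log2(FPKM + 1), computed here from the deposited FPKM. Genes with a mean of at least 0.5 FPKM over the 4 libraries compared were tested in limma 3.58.1 (R 4.3.3) with population as the term, all 6 libraries in 1 fit and a variance trend (3 residual and 2.85 prior degrees of freedom). Calls were made where p, adjusted by Benjamini-Hochberg across the genes tested, was under 0.05. With 2 libraries a group, no exact permutation test of 1 gene can reach that threshold. The procedure was also run on simulated data with the same spread in every library. That run cannot show how the calls hold under the wider spread of the Low-Fli1+ libraries.

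The 27 gene lists hold 980 genes, of which 944 were found, 22 by synonym. The lists and their members were chosen with earlier results of these data known. Genes named are the 15 largest calls in each direction with a mean of 5 FPKM or more, no overlap of the groups and a name of their own, the reporter and title genes, the 6 largest calls and the 2 largest uncalled differences of each list, and defining markers. Other called members, which close a count or give the end of a range, were named after their values were seen. Alternatives were other pseudocounts (0.1 and 5), filters, scalings and variance models, a replicate block, the 4 libraries alone and each library left out. Where 1 library remained in a population, it was assumed to vary like the others.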

Additional observations from a re-analysis of the deposited data

How the results depend on the processing

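All 668 calls kept their direction under every setting in which they were tested (657 of them with a mean of at least 2 FPKM). Outside quantile normalization and median-ratio scaling this was fixed in advance. For every call the Low-Fli1+ and Fli1- libraries did not overlap. A mean of at least 2 FPKM, a filter over all 6 libraries, a pseudocount of 5, quantile normalization and median-ratio scaling left the counts of higher and lower calls within 1.5 times the reported 425 and 243. Lower calls numbered 537 at a pseudocount of 0.1, 367 without a filter and 429 without the variance trend. With only the 4 libraries compared there were 0 higher and 1 lower. With a replicate block there were 257 higher, 73 lower and 69 that also differed from High-Fli1+, against 111 reported. The numbers were not taken as pairs, since deviations of same-numbered libraries from their population means correlated at 0.0955, 0.0862 and 0.129 over the 3 pairs of populations. Some lists still moved with replicate number in all 3 populations. Summed FPKM was higher in replicate 2 for ribosomal protein genes, and in replicate 1 for neuronal and for photoreceptor and lens genes. Oxidative phosphorylation genes kept no such direction. Whether same-numbered libraries share a batch was not tested. Library weights, estimated as 0.423 for Low-Fli1+, 1.91 for Fli1- and 1.24 for High-Fli1+ libraries, gave 129, 41 and 29. With 1 library left out the 3 counts ran from 0 to 437, 0 to 818 and 0 to 416. Leaving out 1640 genes listed at 0 in 1 library of a pair and reaching 5 FPKM in the other, an alternative chosen after seeing the data, gave 684, 655 and 258, with all 668 calls among them. The cause of these shifts was not tested.

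The sign of some uncalled log2 differences depended on the library left out. They ran from -1.20 to 3.56 for mef2ca, from -5.47 to 0.45 for rps28, from -5.20 to 0.48 for rpl38, from -1.76 to 0.17 for cdh5, from -0.17 to 3.15 for egfl7, from -0.17 to 0.33 for she, from -0.79 to 2.07 for mfap4, from -0.54 to 0.35 for notch3, from -2.84 to 0.75 for opn1sw1, from -2.50 to 0.14 for pde6h, from -0.14 to 0.99 for actc1b, from -3.02 to 0.34 for mylpfa, from -2.58 to 0.35 for ckma, from -0.74 to 1.04 for acta1b, from -0.20 to 2.57 for nppa, from -0.13 to 1.13 for pnp4a and from -0.88 to 1.57 for tyrp1b, which was also at -0.12 with a pseudocount of 0.1. The depth behind these values is unknown.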

Other observations

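Some genes outside the lists, picked after their values were seen, were called above both other populations in Low-Fli1+ cells. The chemokine receptor genes ccr9b and ccr12a had 0 listed for both Fli1- libraries, against 8.71 and 5.65 and 10.8 and 6.38 FPKM in Low-Fli1+ replicates 1 and 2. In High-Fli1+ libraries ccr9b was at 0 and 0.353 FPKM and ccr12a at 0 in both. The cytokine receptor chain csf2rb was at 0.403 and 0 FPKM in the Fli1- libraries, 5.76 and 6.43 in the Low-Fli1+ pair and 0.345 and 0 in the High-Fli1+ pair. NCKAP1L, a part of the actin-regulating complex of blood cells, was at 3.21 and 2.52 FPKM in the Fli1- libraries, 69.6 and 79.8 in the Low-Fli1+ pair and 7.43 and 14.4 in the High-Fli1+ pair (log2 fold change against Fli1- 4.29, adjusted p = 0.0200 in limma). The fin fold gene and2, an actinodin, was at 15.9 and 31.0 FPKM in the Fli1- libraries, 87.9 and 161 in the Low-Fli1+ pair and 18.3 and 15.6 in the High-Fli1+ pair (log2 fold change 2.37, adjusted p = 0.0493 against Fli1-, and 2.74, adjusted p = 0.0322 against High-Fli1+).

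The Wnt pathway genes sfrp2 and wnt5b had Low-Fli1+ levels between the other populations. For sfrp2 the values were 5.26 and 7.56 FPKM in the Fli1- libraries, 52.0 and 62.5 in the Low-Fli1+ pair and 127 and 96.6 in the High-Fli1+ pair (log2 fold change against Fli1- 2.98, adjusted p = 0.0207 in limma). For wnt5b they were 4.36 and 7.03, 44.7 and 44.2, and 104 and 93.7 FPKM (2.79, adjusted p = 0.0215). Neither was called against High-Fli1+ (adjusted p = 0.121 and 0.0829). These calls come from the fit of all 6 libraries and share its dependence on single libraries.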
